A study of Mus musculus with 8 samples.

Results

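The genes described here are 9 genes of iron uptake, export, storage and sensing, found as the rows of the deposited table whose symbol was Slc11a2, Cybrd1, Tfrc, Slc40a1, Heph, Fth1, Ftl1, Ireb2 or Aco1. All 9 were found once each among 55487 genes, and all 9 passed the filter for testing (a mean over libraries of 10 normalized counts or more), as 16352 genes did. They were measured by bulk RNA sequencing of mouse ileum in 8 libraries, 4 from Gsdme-/- mice (Gsdme_KO) and 4 from Gsdme+/+ mice (WT). Every mouse of both genotypes had received irinotecan, a topoisomerase I inhibitor that injures the intestinal lining, so the values compare genotypes under treatment. The product of Gsdme is gasdermin E, which forms membrane pores once caspases have cut it. The sources used here do not state the dose, the time of sampling, the strain, the age or how the Gsdme allele was made. The labels call each library a mouse, without stating litters or cages.

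Dietary iron is reduced at the apical membrane of the enterocyte and imported there by DMT1, the Slc11a2 product, and it leaves across the basolateral membrane through ferroportin, the Slc40a1 product. Iron that is not exported is held inside the cell in ferritin. A pair of RNA-binding proteins, encoded by Aco1 and Ireb2, sense cytosolic iron and bind hairpins called iron-responsive elements in the mRNAs of several of the other genes: binding in a 5′ UTR blocks translation, and binding in the 3′ UTR of Tfrc protects the mRNA from decay. Absorption takes place mainly in the duodenum, and the ileum takes a smaller part in it.

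The hairpins are shown because the sensors act on mRNAs that carry them. UTRs of GENCODE M21 protein-coding transcripts (GRCm38) were searched on the transcript's strand for a C, 5 bases, the loop CAGTGN with any last base but G, and 5 bases pairing with the first 5, with G-T pairs and 1 mismatch allowed. A match was found in 5 of the 9 genes, and the matches of Tfrc are numbered by position. Elements of another form would be missed, so a UTR may hold elements that are not shown. Binding was not measured. In all, 143 of 20916 genes with a 5′ UTR (0.684%) and 664 of 21707 genes with a 3′ UTR (3.06%) held a match. The capitals mark the loop, and each line gives 30 bases, 5′ to 3′, as DNA letters.
Fth1, 5′ UTR: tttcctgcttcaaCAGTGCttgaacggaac
Ftl1, 5′ UTR: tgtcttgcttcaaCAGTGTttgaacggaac
Slc40a1, 5′ UTR: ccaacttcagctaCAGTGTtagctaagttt
Slc11a2, 3′ UTR: gagccatcagagcCAGTGTgtttctatggt
Tfrc, 3′ UTR, element 1: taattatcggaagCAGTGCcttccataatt
Tfrc, 3′ UTR, element 2: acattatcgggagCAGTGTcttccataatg
Tfrc, 3′ UTR, element 3: tctatatcggagaCAGTGAtctccatatgt
Tfrc, 3′ UTR, element 4: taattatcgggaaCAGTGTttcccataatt

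The element of Fth1 lies at chr19:9982731-9982760 (plus strand), that of Ftl1 at chr7:45459779-45459808 (minus), that of Slc40a1 at chr1:45925465-45925494 (minus) and that of Slc11a2 at chr15:100395153-100395182 (minus). The Tfrc elements lie on the plus strand of chromosome 16, at chr16:32631218-32631247, chr16:32631597-32631626, chr16:32631662-32631691 and chr16:32631709-32631738. The upper stems of the ferritin pair match in all bases shown between the bulged C and the loop, and Slc11a2 alone had the 1 mismatch. Not all Slc11a2 transcripts carry the element, and the deposited table has 1 row per gene, so transcripts with and without it were counted together. No match lay in the UTRs of Cybrd1, Heph, Ireb2 or Aco1 under this search.

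None of the 9 genes was called between the genotypes. By limma-trend on log2(normalized count + 1), 0 of 9 had a Benjamini-Hochberg adjusted p under 0.05, against 0.00612% of all genes tested in either direction. On the recovered reads, edgeR's quasi-likelihood test also called 0 of 9, against 0.00612% of all genes. DESeq2 called 0 of 9, against 0.0599% of the 15024 genes for which it gave an adjusted p. Gsdme itself was called by DESeq2 but neither by limma (limma adjusted p = 0.786) nor by edgeR (edgeR adjusted p = 0.812). A gene that was not called may therefore still differ. At an unadjusted p under 0.05 the count was 0 of 9 by each tool, against 4.38% of all genes by limma and 6.01% by edgeR. For DESeq2 the share was 7.04% of those 15024 genes. The libraries of the genotypes overlapped for all 9 genes, whereas they did not overlap for 2.5% of all genes. The log2 fold change was positive for 3 members and negative for 6, with a median of -0.10, against a median of 0.0026 over all genes. In bulk tissue, fewer cells of a type and less RNA per cell cannot be told apart.

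The libraries held 15617407 to 23437343 reads in genes. Gsdme itself had 113, 187, 634 and 464 normalized counts in KO4, KO5, KO7 and KO8, against 3376, 2169, 3164 and 2696 in WT3, WT5, WT7 and WT8. Every Gsdme_KO library thus lay below every WT library, in the direction of the genotype labels, and none was at 0. A pair of Gsdme_KO libraries, KO4 and KO5, differed from the rest in cell type markers. The summed level of 13 enterocyte markers was 181457 and 271411 in this pair (KO4, then KO5) and 657674 and 494376 in the others (KO7, then KO8), against 354309 to 661314 in WT. The summed level of 8 B cell markers was 9233 and 5237 in the pair and 312 and 236 in KO7 and KO8, against 204 to 308 in WT. The summed level of 9 T cell markers was 2923 and 1799.99 in the pair and 1129 and 1164 in KO7 and KO8, against 609 to 1172 in WT, and the log2 fold changes of all 9 were positive, with a median of 1.05, and of 0.44 without the pair. None of the 13 enterocyte markers was at 0 in any library. For the 9 iron genes, log2 fold changes are given with all libraries and without KO4 and KO5.

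Slc11a2 (ENSMUSG00000023030, chromosome 15, 100387898 to 100425072, minus strand, GRCm38) encodes DMT1, the proton-coupled importer of ferrous iron. It had 719.9, 739.7, 1497 and 1055 normalized counts in KO4, KO5, KO7 and KO8, against 1159.7, 1635, 849.7 and 746 in WT3, WT5, WT7 and WT8. Low libraries of about the same level were present in both genotypes, and the highest was WT5, followed by KO7. The means were 1003 ± 364 in Gsdme_KO and 1098 ± 399 in WT (SD, n = 4 each). The log2 fold change was -0.13, with a 95% interval from -0.81 to 0.55 (limma adjusted p = 0.939). Without KO4 and KO5 it was 0.26, not called, and it was 0.086 without WT5 and 0.0087 without KO4, so its direction rested on single libraries. The gene overlaps the exons of Gm5475 on the opposite strand, whose mean was 3.54 normalized counts.

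Cybrd1 (ENSMUSG00000027015, chromosome 2, 71117923 to 71142926, plus strand) encodes duodenal cytochrome b, an apical ferric reductase. It was the lowest of the 9 genes, with 74 to 304 recovered reads per library. It had 129, 228, 90.2 and 132 normalized counts in KO4, KO5, KO7 and KO8, against 104, 107, 99.6 and 123 in WT3, WT5, WT7 and WT8. KO5 alone lay far above the others, and KO7 lay below every WT library. The means were 145 ± 58.8 in Gsdme_KO and 109 ± 10.3 in WT (SD, n = 4 each), a log2 fold change of 0.34 with a 95% interval from -0.25 to 0.92 (limma adjusted p = 0.849). It was 0.092 without KO5 and 0.013 without KO4 and KO5. The summed level of 7 markers of the proximal small intestine was 451, 1048, 1756 and 1258 in KO4, KO5, KO7 and KO8. In WT3, WT5, WT7 and WT8 this sum was 1303, 2864, 1009 and 483. Its part in the Cybrd1 values was not tested.

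Tfrc (ENSMUSG00000022797, chromosome 16, 32608920 to 32632794, plus strand) encodes transferrin receptor 1, which takes up transferrin-bound iron from the blood side and is high in dividing cells. It had 1099.6, 1539, 1976 and 1633 normalized counts in KO4, KO5, KO7 and KO8, against 2389.7, 1903, 1468 and 1524 in WT3, WT5, WT7 and WT8. KO4 was the lowest library and WT3 the highest, and the other 6 were interleaved. The means were 1562 ± 361 in Gsdme_KO and 1821 ± 425 in WT (SD, n = 4 each), a log2 fold change of -0.22 with a 95% interval from -0.69 to 0.25 (limma adjusted p = 0.849). It was -0.066 without KO4 and 0.0083 without KO4 and KO5. The summed level of 10 proliferation markers ran from 7088 to 8248 in Gsdme_KO, inside the 5154 to 10598 of WT. That of 6 markers of erythroid cells was 71.9 to 126 in Gsdme_KO and 105 to 308 in WT. Of these 6, 1 was at 0 in all libraries and only 2 passed the filter for testing, so the sum is a low one. The part of either in the Tfrc values was not tested.

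**Figure D1:**
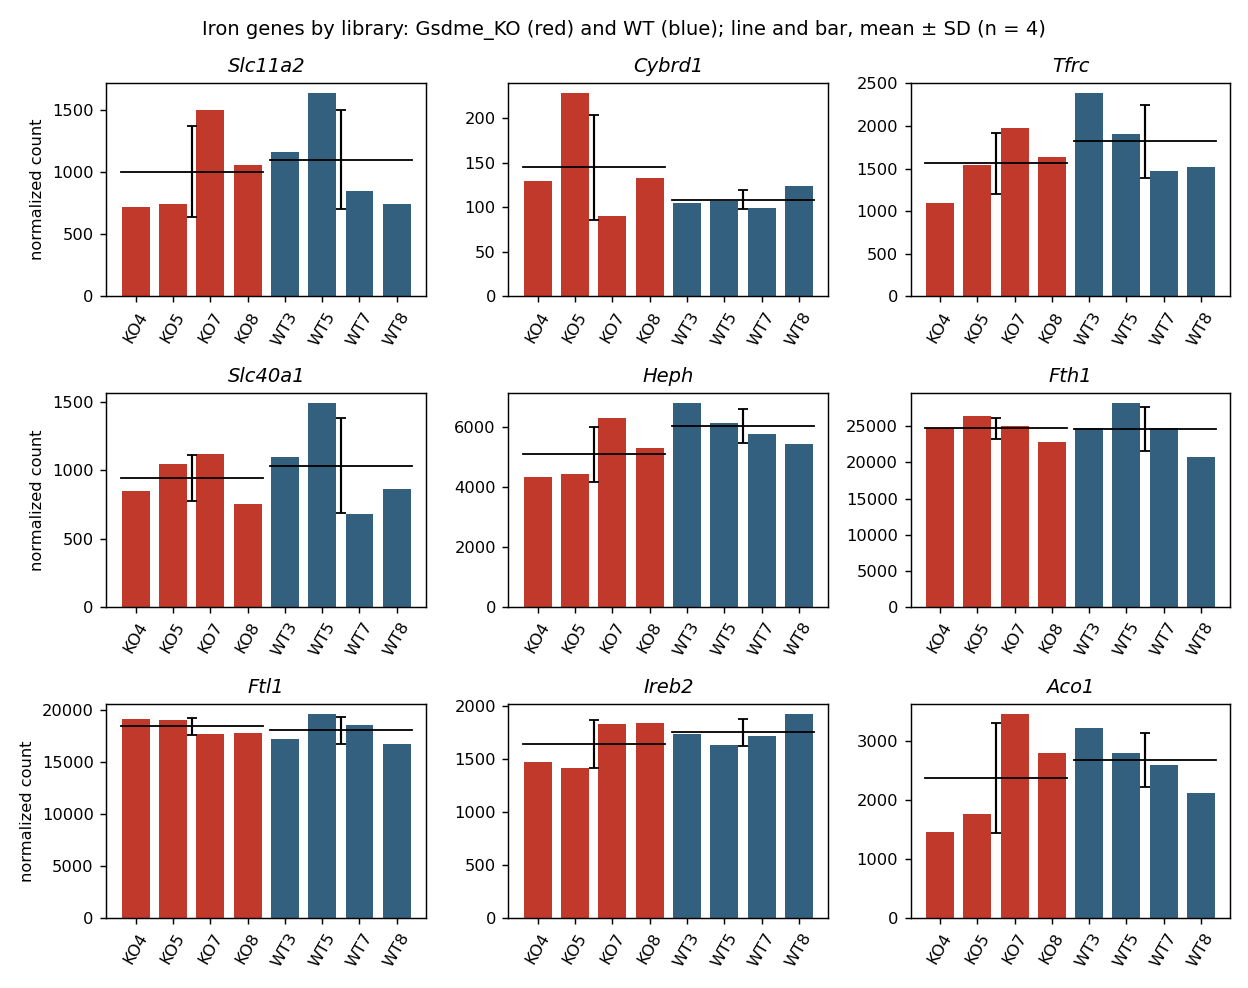
Normalized counts of each of the 9 iron genes (y axes, from 0) in the 4 Gsdme_KO libraries (red, left) and the 4 WT libraries (blue, right), with the mean as a line and the SD as a bar. The libraries of both genotypes overlap in every panel, the ferritin genes vary least, and KO4 is the lowest library for Slc11a2, Tfrc, Heph and Aco1.

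The export genes likewise overlapped. Slc40a1 (ENSMUSG00000025993, chromosome 1, 45908068 to 45926523, minus strand) encodes ferroportin, the iron exporter of enterocytes and also of macrophages. It had 849, 1049.8, 1121 and 756 normalized counts in KO4, KO5, KO7 and KO8, against 1097, 1491, 684 and 867 in WT3, WT5, WT7 and WT8. The highest and the lowest of the 8 libraries were both WT. On the log2 scale the fold change was -0.090, with a 95% interval from -0.62 to 0.44 (limma adjusted p = 0.947), and it was 0.105 without WT5, 0.010 without KO8 and -0.11 without KO4 and KO5. The summed level of 10 macrophage markers was 15293 and 11727 in KO4 and KO5 and 7379 and 8294 in KO7 and KO8, against 7910 to 11010.3 in WT, and its part in the Slc40a1 values was not tested.

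Heph (ENSMUSG00000031209, chromosome X, 96455359 to 96574485, plus strand) encodes hephaestin, the copper-dependent ferroxidase that works beside ferroportin. It had 4333, 4446, 6315 and 5294 normalized counts in KO4, KO5, KO7 and KO8, against 6797, 6132, 5785 and 5449.7 in WT3, WT5, WT7 and WT8. In 3 of the 4 Gsdme_KO libraries it lay below every WT library, and KO7 was second only to WT3 among all 8. The means were 5097 ± 918 in Gsdme_KO and 6041 ± 576 in WT (SD, n = 4 each). The log2 fold change of -0.26, with a 95% interval from -0.56 to 0.05, had the smallest unadjusted p of the 9 genes (0.0904; limma adjusted p = 0.849). It was -0.37 without KO7 and -0.058 without KO4 and KO5. The Heph exons overlap Hsf3 on the opposite strand, whose mean was 8.09 normalized counts.

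The ferritin genes were the most abundant and the steadiest members. Fth1 (ENSMUSG00000024661, chromosome 19, 9980598 to 9985098, plus strand) encodes the heavy chain, which oxidises iron as it enters the shell. It had 24767, 26348, 24968 and 22757 normalized counts in KO4, KO5, KO7 and KO8, against 24696, 28154, 24761 and 20693 in WT3, WT5, WT7 and WT8. All 4 Gsdme_KO libraries lay inside the WT range. Fth1 differed by 0.014 on the log2 scale, with a 95% interval from -0.27 to 0.30 (limma adjusted p = 0.986), and by -0.036 without KO4 and KO5. Ftl1 (ENSMUSG00000050708, chromosome 7, 45457944 to 45459884, minus strand) encodes the light chain, which promotes mineral growth inside the shell. It had 19131, 19089.5, 17714 and 17806 normalized counts in KO4, KO5, KO7 and KO8, against 17269, 19633, 18604 and 16728 in WT3, WT5, WT7 and WT8. All 4 Gsdme_KO values again lay inside the WT range. Ftl1 differed by 0.032 on the log2 scale, with a 95% interval from -0.19 to 0.26 (limma adjusted p = 0.952), that is a ratio between 0.875 and 1.19, and by -0.021 without KO4 and KO5. The Ftl1 exons overlap Gm10252 on the opposite strand, whose mean was 5.71 normalized counts.

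Within genotypes, the SD of log2(normalized count + 1) was 0.0855 for Ftl1, and 5.53% of the genes tested had a smaller one. It was 0.143 for Fth1, with 21.9% of genes below it. At the other end, Slc11a2 had an SD of 0.501 and Aco1 of 0.448, above 80.0% and 75.9% of the genes tested. The ferritin genes thus took a narrow share of each library, from 0.224% to 0.258% of reads in genes in Gsdme_KO and from 0.219% to 0.249% in WT. Ferritin genes have near-identical copies that can share reads. Of 15 other rows with a ferritin symbol, 10 were at 0 in every library and 4 had no more than 6.81 normalized counts in any. Ftl1-ps1, the remaining one, had 106 to 155 in Gsdme_KO and 128 to 170.2 in WT, so the split between Ftl1 and this copy is uncertain.

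The mRNAs of the iron sensors differed in how far they followed KO4 and KO5. Aco1 (ENSMUSG00000028405, chromosome 4, 40143081 to 40198338, plus strand) encodes IRP1, which is a cytosolic aconitase when it holds an iron-sulfur cluster and an RNA-binding protein when it does not. It had 1449.9, 1754, 3458 and 2804 normalized counts in KO4, KO5, KO7 and KO8, against 3215, 2799.8, 2592 and 2119.8 in WT3, WT5, WT7 and WT8. KO4 and KO5 were the lowest of all 8 libraries, and KO7 was the highest. The means were 2366 ± 930.4 in Gsdme_KO and 2682 ± 455 in WT (SD, n = 4 each), and the log2 fold change of -0.25 had a 95% interval from -0.86 to 0.36 (limma adjusted p = 0.872). Without KO4 and KO5 the fold change was 0.23, not called, and it was -0.46 without KO7 and -0.044 without KO4.

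Ireb2 (ENSMUSG00000032293, chromosome 9, 54863789 to 54912530, plus strand) encodes IRP2, which is degraded when iron is plentiful. It had 1470.2, 1409.5, 1825 and 1834.5 normalized counts in KO4, KO5, KO7 and KO8, against 1729, 1624, 1714 and 1921 in WT3, WT5, WT7 and WT8. KO4 and KO5 again lay below all other libraries, by less than for Aco1, and KO7 and KO8 lay within the WT range. Its log2 fold change of -0.10 had a 95% interval from -0.35 to 0.15 (limma adjusted p = 0.871), and it was 0.069 without KO4 and KO5.

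**Figure D2:**
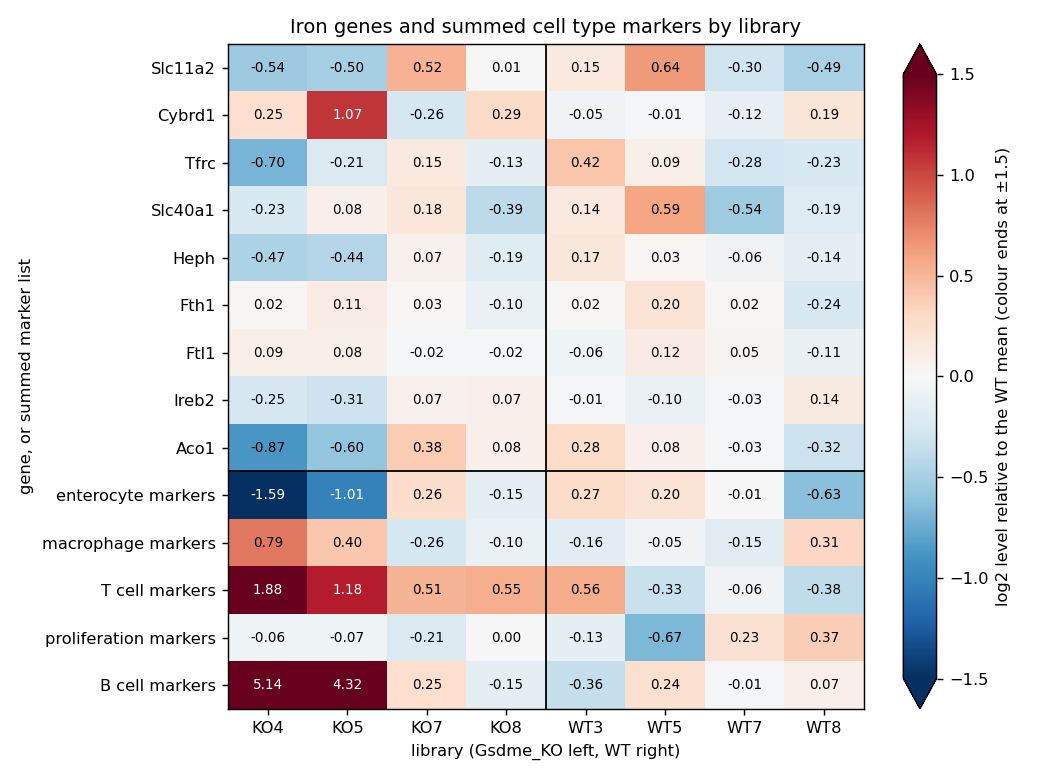
Level of each iron gene (log2(normalized count + 1)) and of the summed normalized counts of 5 marker lists (log2), relative to the WT mean (colour and printed value), in each library, with Gsdme_KO left of the line and WT right of it. Aco1, at -0.87 in KO4 and -0.60 in KO5, and Heph, at -0.47 and -0.44, are below the WT mean in this pair. So are Slc11a2, Tfrc and Ireb2, while Cybrd1, at 0.25 and 1.07, is above it and Slc40a1 lies on both sides. The enterocyte markers are at -1.59 and -1.01 there, and the B cell markers at 5.14 and 4.32. Fth1 and Ftl1 stay between -0.24 and 0.20 in all 8 libraries. The part of cell types in these levels was not tested.

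Across the members, KO4 was the lowest library for 4 of 9 genes (Slc11a2, Tfrc, Heph and Aco1) and the highest for 0, and WT5 was the highest for 4 (Slc11a2, Slc40a1, Fth1 and Ftl1) and the lowest for 0. The remaining lowest values lay in WT8 for Fth1 and Ftl1, in WT7 for Slc40a1, in KO7 for Cybrd1 and in KO5 for Ireb2. In KO4 and KO5 the levels of Slc11a2, Tfrc, Heph, Ireb2 and Aco1 were below the WT mean in both, those of Cybrd1, Fth1 and Ftl1 were above it in both, and that of Slc40a1 was below it in KO4 and above it in KO5. In KO7 the levels of Slc11a2, Tfrc, Slc40a1, Heph, Fth1, Ireb2 and Aco1 were above the WT mean. The summed enterocyte markers were low in KO4 and KO5. The summed markers of the proximal small intestine were highest in WT5, at 2864, and lowest in KO4, at 451, followed by WT8, at 483. The part of either sum in these values was not tested. Without KO4 and KO5, 5 members had a positive and 4 a negative log2 fold change, and 0 of 9 were called, against 0.00617% of all genes.

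**Figure D3:**
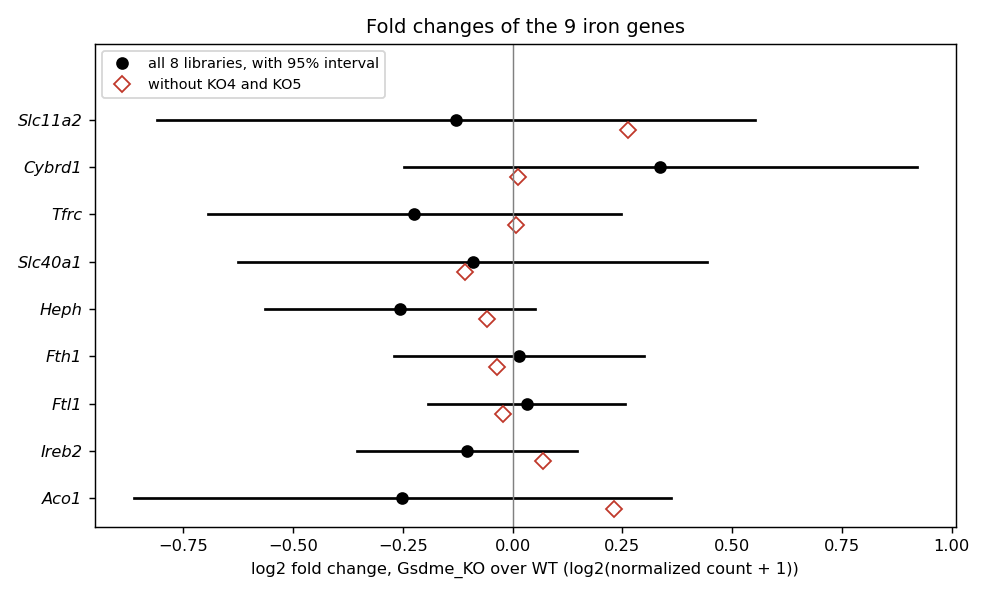
Log2 fold change of Gsdme_KO over WT for each iron gene on the log2(normalized count + 1) scale (x axis), with all 8 libraries (filled points, bars are 95% intervals of the limma fit) and without KO4 and KO5 (open diamonds). Every interval includes 0, the narrowest are those of Ftl1 and Ireb2, and the values for Slc11a2, Tfrc, Fth1, Ftl1, Ireb2 and Aco1 lie on the other side of 0 without these libraries.

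Levels of different genes were compared as normalized counts per kilobase of the principal transcript. The light chain gene Ftl1 averaged 19045 ± 806 per kilobase in Gsdme_KO and 18656 ± 1356 in WT, and the heavy chain gene Fth1 averaged 16539.5 ± 990.4 in Gsdme_KO and 16450 ± 2042 in WT (SD, n = 4 each). Their ranges did not overlap in Gsdme_KO, but did in WT. Heph followed at 1075 ± 194 in Gsdme_KO and 1274 ± 121 in WT, and Aco1 at 618 ± 243 and 699.8 ± 119, with no overlap between these genes in either genotype. Slc11a2, Tfrc, Ireb2 and Slc40a1 lay together, at means from 280.1 to 332 per kilobase in Gsdme_KO and from 303 to 372 in WT, and their ranges overlapped. Those of Slc11a2 and Tfrc reached into that of Aco1 in Gsdme_KO, but not in WT. Cybrd1 was far below them, at 27.2 ± 11.0 per kilobase in Gsdme_KO and 20.3 ± 1.93 in WT. Transcripts of other lengths from the same gene would shift these values.

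Ratios of pairs of members within a library do not depend on how libraries were scaled. They were taken on normalized counts without correction for transcript length, so a ratio above 1 does not mean more transcripts of the first gene. The ratio of Tfrc, the uptake receptor, to Fth1 was 0.0444, 0.0584, 0.0791 and 0.0717 in KO4, KO5, KO7 and KO8, against 0.0968, 0.0676, 0.0593 and 0.0736 in WT3, WT5, WT7 and WT8. KO4 had the lowest and WT3 the highest ratio. The difference in mean log2 ratio was -0.24 (two-sided exact permutation p = 0.371; adjusted over 4 ratios, 0.914). The ratio of import to export, Slc11a2 to Slc40a1, was 0.848, 0.705, 1.34 and 1.40 in KO4, KO5, KO7 and KO8, against 1.06, 1.10, 1.24 and 0.860 in WT3, WT5, WT7 and WT8. Values of Gsdme_KO thus fell on both sides of the WT range, with a difference of -0.038 (two-sided exact permutation p = 0.914; adjusted p = 0.914).

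The remaining ratios also overlapped. That of heavy to light ferritin chain, Fth1 to Ftl1, ran from 1.28 to 1.41 in Gsdme_KO and from 1.24 to 1.43 in WT, a difference of -0.017 on the log2 scale (two-sided exact permutation p = 0.771; adjusted p = 0.914). It was the steadiest of the 4, with an SD of the log2 ratio of 0.0690 in Gsdme_KO and 0.101 in WT. That of Ireb2 to Aco1 was 1.01, 0.804, 0.528 and 0.654 in KO4, KO5, KO7 and KO8, against 0.538, 0.580, 0.661 and 0.906 in WT3, WT5, WT7 and WT8. KO4 had the highest and KO7 the lowest, and the log2 difference was 0.15 (two-sided exact permutation p = 0.629; adjusted p = 0.914). The smallest p that 4 libraries against 4 can give is 0.0286. Without KO4 and KO5 the differences were 0.044 for Tfrc to Fth1, 0.37 for Slc11a2 to Slc40a1 and -0.16 for Ireb2 to Aco1, each of the opposite sign.

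**Figure D4:**
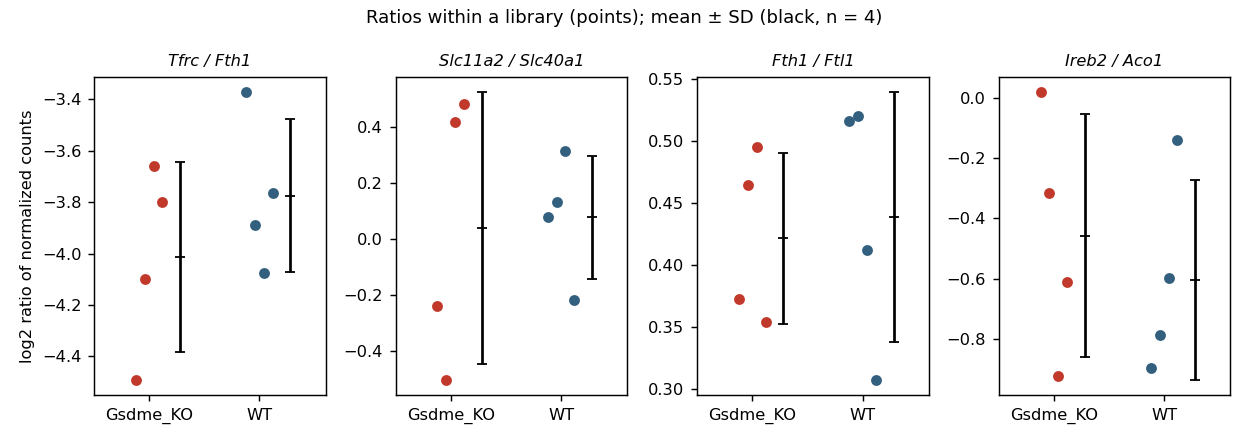
Log2 ratio of normalized counts of 4 pairs of iron genes within each library (coloured points), Gsdme_KO left and WT right in each panel, with the mean and SD in black (n = 4). The points of the genotypes overlap in all 4 panels.

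Genes that neighbour these in iron handling were read from lists. In each list 0 members were called, against 0.00612% of all genes tested, a share at which 0 says little about a list. Of 9 genes of haem uptake, breakdown and export, 5 had a positive and 4 a negative log2 fold change, with a median of 0.016, and of 0.11 without KO4 and KO5. Slc48a1, a haem transporter of endosomes and lysosomes, had the smallest unadjusted p in this list, at 547 ± 40.5 normalized counts in Gsdme_KO and 474 ± 17.3 in WT (SD, n = 4 each; log2 fold change 0.20, limma adjusted p = 0.849; 0.27 without KO4 and KO5). Abcg2, an exporter of porphyrins and of drugs, had 4576 and 4629.5 normalized counts in KO4 and KO5 and 7066 and 6119.6 in KO7 and KO8, against 5771 to 7954 in WT. Its log2 fold change was -0.28 with all libraries (limma adjusted p = 0.849) and -0.0246 without KO4 and KO5. Hmox1, the inducible haem oxygenase, named after its values were seen, had 378, 255, 167 and 204 in KO4, KO5, KO7 and KO8, against 132, 225, 159 and 145 in WT3, WT5, WT7 and WT8.

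Of 8 genes of haem synthesis, 1 had a positive and 7 a negative log2 fold change, with a median of -0.051, and of -0.0044 without KO4 and KO5. Uros, the uroporphyrinogen III synthase, had 193, 207, 218 and 224 normalized counts in KO4, KO5, KO7 and KO8, against 253, 285, 261 and 251 in WT3, WT5, WT7 and WT8. Its libraries did not overlap, as was the case in the lower direction for 1.19% of all genes, and it was not called (log2 fold change -0.32, limma adjusted p = 0.849). Without KO4 and KO5 its fold change was -0.25. Alas1, the rate-limiting enzyme of haem synthesis outside red cells, was highest in KO4 at 4133, and ran from 2623 to 3038 in KO5, KO7 and KO8, against 2440.1 to 3193 in WT. Its log2 fold change of 0.20 (limma adjusted p = 0.849) was 0.0597 without KO4 and -0.002 without KO4 and KO5.

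Among 12 genes of intracellular iron handling, 8 had a positive and 4 a negative log2 fold change, with a median of 0.014, and of -0.0073 without KO4 and KO5. The iron chaperone gene Pcbp1 had 4402 ± 77.6 normalized counts in Gsdme_KO and 4369.9 ± 152 in WT (SD, n = 4 each; log2 fold change 0.011, limma adjusted p = 0.978; 0.0314 without KO4 and KO5). Of 13 tested genes of mitochondrial iron and iron-sulfur assembly, 5 were positive and 8 negative, with a median of -0.032, and of 0.099 without KO4 and KO5. Slc25a37, the mitochondrial iron importer mitoferrin-1, had 1889 and 1569 normalized counts in KO4 and KO5 and 3716 and 3628 in KO7 and KO8, against 2649 to 3855 in WT. Its log2 fold change of -0.36 (limma adjusted p = 0.849) was 0.19 without KO4 and KO5.

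The hepcidin axis and serum iron carriers had 7 tested genes of 13 matched, 7 of them with a positive log2 fold change, a median of 0.41, and -0.15 without KO4 and KO5. The symbol listed for transferrin, Tf, was not matched, so these values leave transferrin out. Cp, the ferroxidase ceruloplasmin, had 749, 354, 214 and 259 normalized counts in KO4, KO5, KO7 and KO8, against 153 to 439.5 in WT, and Hp, haptoglobin, had 443 in KO4 and 146 to 166 in KO5, KO7 and KO8, against 69.2 to 189 in WT. The log2 fold change of Cp was 0.41 with all libraries (limma adjusted p = 0.865), 0.0449 without KO4, 0.16 without WT3 and -0.15 without KO4 and KO5. That of Hp was 0.57 with all libraries (limma adjusted p = 0.849), 0.196 without KO4, 0.247 without WT3 and 0.19 without KO4 and KO5. Hepcidin itself, Hamp, lay below the filter, with at most 7.37. Epas1, which encodes HIF-2α, the transcription factor that drives Slc11a2 and Cybrd1 when iron is short, had 1645 ± 174 in Gsdme_KO and 1562 ± 190.4 in WT (SD, n = 4 each; log2 fold change 0.076, limma adjusted p = 0.908; 0.12 without KO4 and KO5).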

How the data were processed

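Total RNA of ileum from 4 Gsdme_KO and 4 WT mice was poly(A)-selected and sequenced with strand-specific libraries, per the labels' protocols. Tools named in the submitters' processing notes are featureCounts, Subread, HISAT2, SAMtools and DESeq2, with the build GRCm38. No source used here gives their versions, the annotation release, or how strand and multimapping reads were handled. The table that the authors deposited holds a normalized signal: in each library, gene read counts over a single divisor. Multiplying back gave whole reads for 100% of values in each library (within 0.01 reads).

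Column numbers (WT3 to WT8, KO4 to KO8) are not the replicate numbers of the labels, so columns were assigned to a genotype only. Values were transformed as log2(normalized count + 1), and limma (version 3.58.1, trend option; R version 4.3.3) compared the genotypes on this scale, which understates changes of low genes, for genes with a mean of at least 10, adjusted by Benjamini-Hochberg over 16352 genes, called under 0.05. Ratios were compared by two-sided exact permutation over 70 assignments. Counting error was not added to the spread between libraries. Alternatives were pseudocounts of 0.5 and 5, no filter, a mean of at least 50, TMM, quantile normalization, array weights, edgeR 4.0.16 and DESeq2 1.42.0 on recovered reads (1 and 9 genes called), a difference in medians for ratios, each library left out, and KO4 and KO5 left out together, the last chosen once these data had been seen. The limma fit was also run on simulated data with known changes. It missed part of them, so a gene that was not called may still differ. Lengths and positions are from GENCODE M21.

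Members and lists were chosen with earlier results of these data known. In each list the called genes, or else the 2 of highest mean, and the 1 of smallest p could be named. For the 2 members of largest range, the 3 protein-coding genes of closest profile were named. Hmox1, Hamp, Gm10252, Gm5475, Hsf3 and the ferritin copies are named outside this rule. The list of other mRNAs with an iron-responsive element is not reported here as a whole.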

Additional observations from a re-analysis of the deposited data

How the results depend on the processing

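No setting called any of the 9 iron genes: the count was 0 higher and 0 lower in all 18 alternatives. From 0 to 2 members had an unadjusted p under 0.05, with 2 only without KO7. The share of all genes under that p without KO7 was not computed, so the 2 cannot be read as particular to these genes. Without KO4 and KO5, the log2 fold changes that turned sign were 0.26 (Slc11a2), 0.0083 (Tfrc), -0.0355 (Fth1), -0.0212 (Ftl1), 0.0693 (Ireb2), 0.23 (Aco1), -0.002 (Alas1), 0.17 (Fech), 0.19 (Slc25a37), -0.45 (Bmp2), -0.15 (Cp), 0.145 (Cdc14a), 0.0896 (Vegfa) and 0.0522 (Slc31a1), and the ratio differences 0.0438 (Tfrc to Fth1), 0.37 (Slc11a2 to Slc40a1) and -0.16 (Ireb2 to Aco1). With array weights, 0.0081 (Slc11a2), -0.0541 (Fth1), 0.0121 (Ireb2), 0.0909 (Fech) and -0.42 (Bmp2) turned.

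Leaving out 1 library gave log2 ranges of -0.34 to 0.0857 (Slc11a2), -0.27 to 0.105 (Slc40a1), 0.0923 to 0.54 (Cybrd1), -0.37 to -0.18 (Heph), -0.35 to -0.0659 (Tfrc), -0.0654 to 0.0826 (Fth1), -0.0042 to 0.0728 (Ftl1), -0.16 to -0.0358 (Ireb2) and -0.46 to -0.0443 (Aco1) for the members. Values of turned sign inside these ranges were 0.0087 without KO4 (Slc11a2), 0.0103 without KO8 (Slc40a1) and -0.0171 without KO5 (Fth1). Other genes chosen by the naming rule that turned sign in this way had -0.0517 to 0.0933 (Hmox2), -0.13 to 0.0743 (Fech), -0.0118 to 0.0269 (Pcbp1), -0.046 to 0.0491 (Pcbp2), -0.0148 to 0.0428 (Hspa9), -0.20 to 0.33 (Bmp2) and -0.38 to 0.0001 (Cdc14a), and the ratio differences had -0.36 to -0.0786 (Tfrc to Fth1), -0.19 to 0.14 (Slc11a2 to Slc40a1), -0.0612 to 0.0098 (Fth1 to Ftl1) and -0.0118 to 0.30 (Ireb2 to Aco1). Inside these ranges, turned values were -0.0044 without WT7, -0.0103 without KO7 and -0.0183 without KO8 (Hmox2), -0.0355 without WT5, -0.025 without WT8 and -0.0349 without KO7 (Pcbp2), -0.0141 without WT5 (Hspa9), -0.0113 without WT7 and -0.0442 without KO5 (Bmp2), 0.0543 without KO4 and 0.0408 without WT7 (Slc11a2 to Slc40a1), and 0.0054 without KO8 and 0.0085 without WT3 (Fth1 to Ftl1). The cause was not tested. Gsdme was called by DESeq2 (log2 -3.03, DESeq2 adjusted p = 2.12e-07) and without KO4 and KO5 (-2.37, limma adjusted p = 0.0275). With all libraries it was called neither by limma (-3.32, limma adjusted p = 0.786) nor by edgeR (-3.03, edgeR adjusted p = 0.812). No other alternative called it. No paired analysis was possible because the columns do not carry the replicate numbers of the labels. With 74 to 304 reads per library, Cybrd1 is the member whose value counting error limits most.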

Other observations

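Hypoxia-inducible genes, several of which share HIF regulation with the iron import genes, had 8 positive and 4 negative log2 fold changes among 12 tested, with a median of 0.22, and of 0.21 without KO4 and KO5, against 0.0026 over all genes. None was called. Slc2a1, the glucose transporter GLUT1, had the smallest unadjusted p, with 1615, 1313, 694 and 788 normalized counts in KO4, KO5, KO7 and KO8, against 615, 722, 545 and 572 in WT3, WT5, WT7 and WT8 (log2 fold change 0.77, limma adjusted p = 0.849; 0.28 without KO4 and KO5). Egln3, a prolyl hydroxylase that HIF induces, had 5414 ± 1572 in Gsdme_KO and 4044 ± 1700.4 in WT (SD, n = 4 each; log2 fold change 0.48, limma adjusted p = 0.849), and the fold change was 0.2296 without WT8, 0.31 without KO5 and 0.44 without KO4 and KO5. Of 11 copper and zinc genes, 3 were positive and 8 negative, with a median of -0.063, and of -0.0072 without KO4 and KO5. Mt2, a metallothionein, had 606, 369, 644 and 543 in KO4, KO5, KO7 and KO8, against 388, 312, 273 and 358 in WT3, WT5, WT7 and WT8, with KO5 below the highest WT library (log2 fold change 0.68, limma adjusted p = 0.849; 0.84 without KO4 and KO5). Slc31a1, the copper importer CTR1, had 1584 in KO4 and 4144 to 6245 in KO5, KO7 and KO8, against 3433 to 7207 in WT, and its log2 fold change of -0.50 (limma adjusted p = 0.849) was -0.0865 without KO4 and 0.0522 without KO4 and KO5. Slc39a4, the apical zinc importer ZIP4, had 5086 ± 991 in Gsdme_KO and 6107 ± 1131 in WT (SD, n = 4 each; log2 fold change -0.27, limma adjusted p = 0.849), and its fold change was -0.12 without KO4 and -0.11 without KO4 and KO5.

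The 2 members of largest range over the 8 libraries were Cybrd1 and Aco1. Among 14159 other protein-coding genes, those closest to Aco1 in centred log2 level were Rfng, Myo1a and Hycc2, at mean absolute differences of 0.0425, 0.0495 and 0.0537 over 8 libraries, where the median gene lay at 0.389. Myo1a had 16033.5, 19728, 38057 and 31449 normalized counts in KO4, KO5, KO7 and KO8, against 37126.5, 34625, 30658 and 22952.5 in WT3, WT5, WT7 and WT8. Those closest to Cybrd1 were Tigd5, Vip and Ttbk1, at 0.109, 0.124 and 0.134, where the median gene lay at 0.349. Vip had 483, 759 and 373 in KO4, KO5 and KO8 and 295 in KO7, against 329.7 to 456 in WT.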
